A study of Rattus norvegicus with 8 samples.

Results

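Transcellular calcium transport is the route by which the distal kidney tubule takes calcium back from the urine through its cells. The 7 genes described here encode its parts, the apical calcium channels Trpv5 and Trpv6, the calbindins Calb1 and S100g, the basolateral sodium-calcium exchanger Slc8a1, and the basolateral calcium pumps Atp2b1 and Atp2b4. They were taken by symbol, and all 7 of 7 were measured, each by 1 probe set named with that symbol alone, out of 18166 genes in all. Total RNA came from kidney tissue of male Wistar rats, 10 weeks old, and was hybridised to Affymetrix whole-transcript arrays. The groups are 4 arrays of medulla and 4 arrays of cortex. Every array of both groups carries the same treatment label, ethylene glycol given daily and vitamin D given on alternate days for 1 week. The body turns ethylene glycol into oxalate, and the pair of agents is used to make calcium oxalate crystals form in rat kidney. Some genes nevertheless differed many-fold between arrays of a region, among them Cyp24a1, by 27.2-fold in medulla and 37.5-fold in cortex, and whether arrays with this label also differed in treatment or timing was not tested. The labels give no untreated group for these arrays, so no effect of treatment was tested. They also name no separate animals and tie no medulla array to a cortex array, and a p-value here reflects array-to-array spread alone, which may be technical. Some of this spread, as for Cyp24a1, had the same arrangement by replicate number in both regions, and its source was not tested. The unpaired tests used here count all such spread as error, so a difference not called does not show that the regions are alike.

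Calcium enters the cells of the late distal convoluted tubule and the connecting tubule down a steep gradient through TRPV5, and in several tissues through its close relative TRPV6. Inside the cell calbindin-D28k (Calb1) and the smaller calbindin-D9k (S100g) bind calcium and carry it to the basolateral side, where the exchanger NCX1 (Slc8a1) and the plasma membrane pumps PMCA1 (Atp2b1) and PMCA4 (Atp2b4) move it out. The active form of vitamin D, acting through the vitamin D receptor, is known to raise transcription of the channels and calbindins, and of Cyp24a1, the enzyme that degrades it.

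The channel genes are neighbours. In the rat RefSeq annotation of assembly GRCr8, Trpv6 lies at chr4:71474006-71489667 and Trpv5 at chr4:71503085-71531134, with 13417 bases and 0 other annotated genes between them. Both had their highest value of each region on the same arrays, medulla replicate 4 and cortex replicate 4. For that reason the 250 bases before a RefSeq start site of each are shown, on the minus strand. The windows are chr4:71529383-71529632 for Trpv5 and chr4:71489668-71489917 for Trpv6. The Trpv5 window lies inside the gene span given above, before an inner start site, while the Trpv6 window adjoins its gene. Both strands were searched for 4 half-sites of the vitamin D receptor's binding motif, the hexamer AGGTCA, its variant GGGTCA, the further variant AGTTCA, and last the variant GGTTCA, and capitals mark each match.
Trpv5: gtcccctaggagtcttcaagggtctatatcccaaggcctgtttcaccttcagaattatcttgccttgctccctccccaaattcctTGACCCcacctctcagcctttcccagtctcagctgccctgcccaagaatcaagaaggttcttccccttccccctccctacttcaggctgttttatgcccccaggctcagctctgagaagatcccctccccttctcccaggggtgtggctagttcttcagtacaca
Trpv6: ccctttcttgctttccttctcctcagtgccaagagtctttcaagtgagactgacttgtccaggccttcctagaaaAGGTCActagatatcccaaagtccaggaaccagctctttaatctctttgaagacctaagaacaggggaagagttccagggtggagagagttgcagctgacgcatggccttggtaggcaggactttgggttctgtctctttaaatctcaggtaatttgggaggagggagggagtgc
Trpv5 held 1 half-site, GGGTCA on the opposite strand, read as TGACCC on the printed strand, at bases -165 to -160 from the start. Trpv6 held 1, AGGTCA on the printed strand, at bases -175 to -170. Any of the 4 half-sites occurs in 39.1% of the 33469 promoter windows of this length in the table, so their presence is common. The paired element of this receptor, with 3 bases between half-sites on 1 strand, occurs in 0.0926% of windows and was found in neither. RefSeq windows were matched for 5 of the 7 genes, and those of Slc8a1, Atp2b1 and Atp2b4 held 0 of these hexamers. The windows of Slc8a1 and Atp2b4 also lie inside their annotated genes, and that of Atp2b1 overlaps its gene. A match describes letters only, and elements beyond the window were not searched. The remaining genes lie at chr5:34172612-34199555 (Calb1), chrX:35337636-35340205 (S100g), chr6:18975498-19299704 (Slc8a1), chr7:35622267-35731904 (Atp2b1) and chr13:47708157-47807389 (Atp2b4).

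Trpv5, the apical channel, was the member that differed most between arrays. It measured 4.86, 6.59, 7.56 and 8.60 log2 intensity on medulla replicates 1 to 4, against 5.47, 6.53, 8.15 and 9.64 on cortex replicates 1 to 4. In each region the replicate 4 array was highest, the replicate 1 array lowest, and the regions overlapped throughout. Its range, the highest minus the lowest value of a region, was 3.73 log2 in medulla (13.3-fold) and 4.17 in cortex (18.0-fold). Ranked by the smaller of its regional ranges, Trpv5 stood at position 5 of the 18166 genes. The range did not rest on 1 array, although it was 2.00 without medulla replicate 1 and 2.67 without cortex replicate 4. The value on medulla replicate 1 lay under that array's median, which was between 5.09 and 5.12 on all arrays, so a ratio that starts there may be understated.

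Trpv6, the second channel, was dim and nearly flat except on the replicate 4 arrays. It measured 4.86, 4.85, 5.17 and 5.87 in medulla, against 4.97, 4.97, 5.00 and 5.63 in cortex. It exceeded the median of its array on 3 of 8 arrays, and the lower quartile, 4.44 to 4.48, on all 8. The ranges were 1.03 in medulla and 0.67 in cortex. Without medulla replicate 4 the medulla range was 0.32, and without cortex replicate 4 the cortex range was 0.03. The channels are paralogs of similar sequence, and cross-hybridisation between their probe sets was not tested.

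Calb1, the large calbindin, followed another arrangement. It measured 7.74, 10.10, 10.47 and 8.74 in medulla, against 8.98, 10.28, 10.98 and 9.62 in cortex. The replicate 3 array was highest and the replicate 1 array lowest in both regions, and the replicate 4 array, where Trpv5 peaked, was below the replicate 2 array. The ranges were 2.73 log2 in medulla (6.64-fold) and 2.00 in cortex (3.99-fold), which placed Calb1 at position 45. They were 1.72 without medulla replicate 1 and 1.29 without cortex replicate 3, each still above 2-fold.

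S100g, the small calbindin best known from the duodenum, was close to the array medians. It measured 5.17, 5.34, 5.63 and 5.28 in medulla, against 5.09, 5.22, 6.21 and 6.04 in cortex. Its cortex values fell into a lower pair, replicates 1 and 2, and a higher pair, replicates 3 and 4, while the medulla values stayed within a range of 0.46. The cortex range of 1.12 passed 2-fold but was 0.99 without cortex replicate 1 and 0.95 without cortex replicate 3. The medulla range was 0.18 without medulla replicate 3.

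Slc8a1, the basolateral exchanger, was high on the replicate 2 and 3 arrays and low on the replicate 1 and 4 arrays of both regions. It measured 7.17, 8.47, 8.48 and 6.96 in medulla, against 7.64, 8.87, 9.26 and 7.59 in cortex. The ranges were 1.51 in medulla (2.86-fold) and 1.67 in cortex (3.18-fold), at position 110, and stayed above 2-fold with any 1 array left out.

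Atp2b4, the pump PMCA4, had the same arrangement of arrays at a smaller size, with 6.55, 7.35, 7.04 and 6.66 in medulla and 6.96, 7.59, 7.70 and 6.73 in cortex. Its ranges of 0.80 and 0.97 log2 were just short of 2-fold, and the medulla range was 0.48 without medulla replicate 2. Atp2b1, the pump PMCA1 of most cell types, was the most even member. It measured 7.77, 7.55, 8.00 and 7.87 in medulla, against 7.71, 7.70, 7.71 and 7.88 in cortex, with ranges of 0.45 and 0.19. Without medulla replicate 2 the medulla range was 0.23, and without cortex replicate 4 the cortex range was 0.01.

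**Figure D1:**
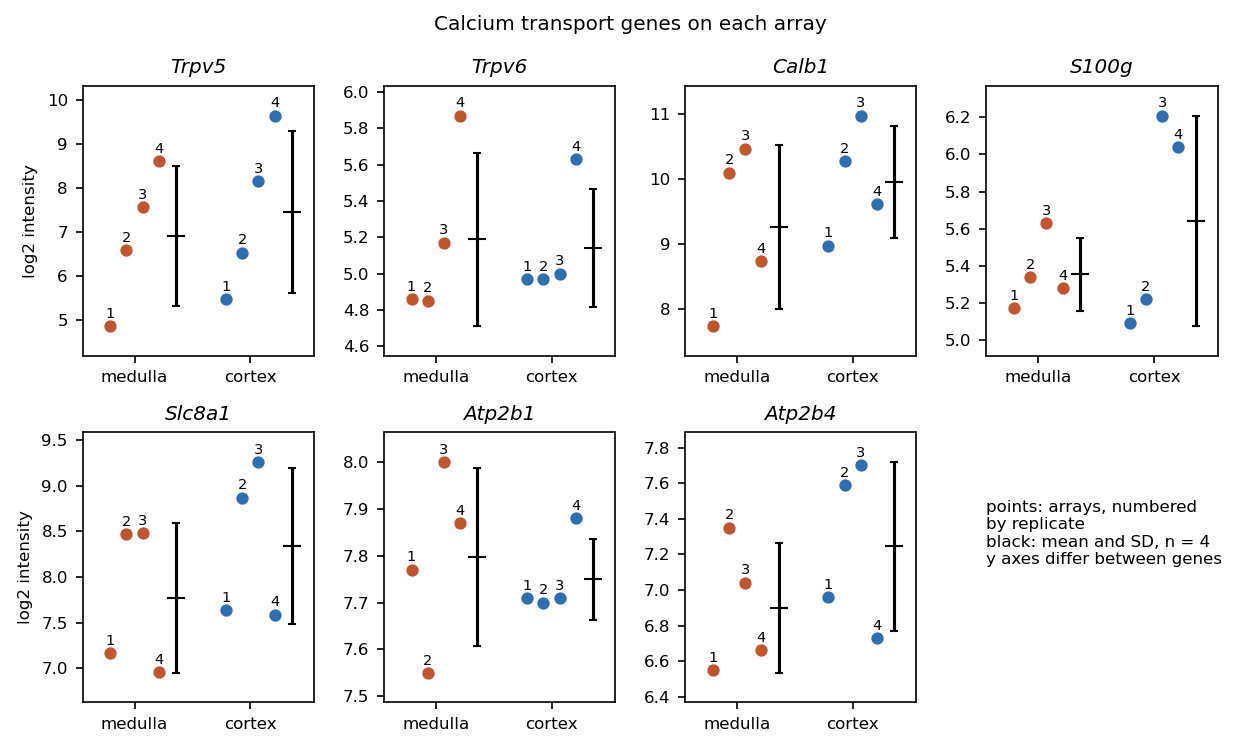
Log2 intensity of the 7 calcium transport genes on each array, medulla (left, orange) and cortex (right, blue), with points numbered by replicate and black bars for the mean and SD (n = 4). Trpv5 and Trpv6 are highest on the replicate 4 arrays, while Calb1 and Slc8a1 are highest on the replicate 3 arrays, and the regions overlap for every gene.

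In the study's design a gene counts as variable when it changes 2-fold in each of the regions, with the arrays to be compared not named in the labels. The range over the 4 arrays of a region was used here instead. It is at least as large as the change between any chosen arrays, so passing it need not meet the study's criterion. A 2-fold range was reached in medulla by 4 of 7 members (Trpv5, Trpv6, Calb1 and Slc8a1), where 3.80% of all genes passed. In cortex 4 of 7 reached it (Trpv5, Calb1, S100g and Slc8a1), where 3.60% passed. In both regions 3 of 7 passed, Trpv5, Calb1 and Slc8a1, against 2.21% of all genes. The median range of the members was 1.03 log2 in medulla and 1.12 in cortex, against 0.25 and 0.21 over all genes. The members were listed with earlier results of these arrays known, so these counts describe them and test nothing. At a 1.5-fold range 5 members passed in both regions, with Trpv6 and Atp2b4 added, and 8.12% of all genes. At a 3-fold range 2 passed, Trpv5 and Calb1, and 0.528% of all genes.

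**Figure D2:**
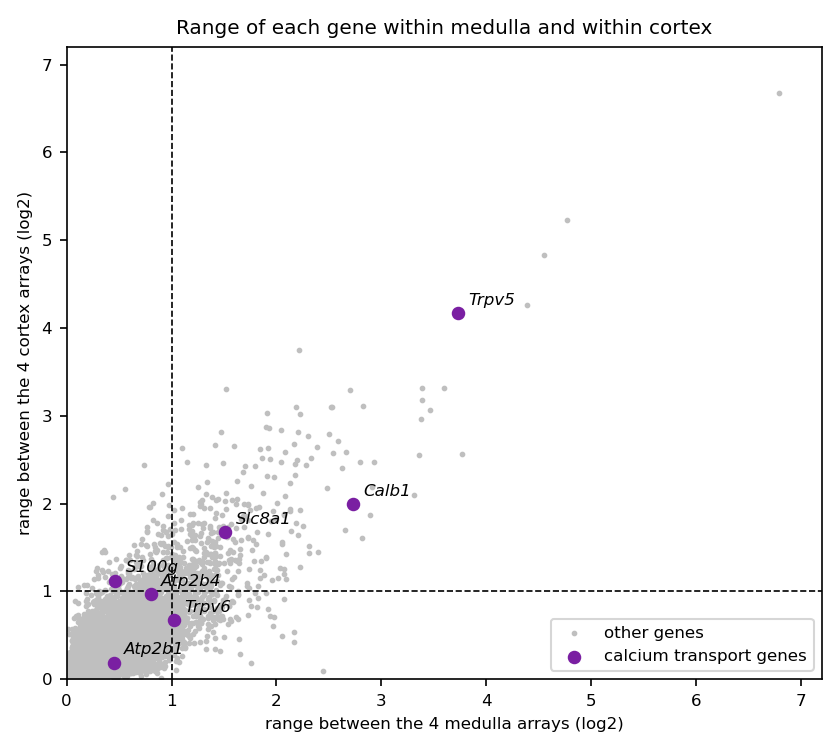
Range of each gene between the 4 medulla arrays (x axis, log2) and the 4 cortex arrays (y axis, log2), with the 7 calcium transport genes in purple, all others in grey, and dashed lines at 2-fold. Trpv5 lies at 3.73 and 4.17, Calb1 at 2.73 and 2.00 and Slc8a1 at 1.51 and 1.67, and Atp2b1 lies among the bulk of genes at 0.45 and 0.19.

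On the replicate 4 arrays both channels were above their region mean and Slc8a1, Calb1 and Atp2b4 below it. On medulla replicate 4, relative to the medulla mean, Trpv5 stood 1.69 log2 above and Trpv6 0.69 above, while Slc8a1 stood at -0.81, Calb1 at -0.52, Atp2b4 at -0.24, S100g at -0.08 and Atp2b1 at 0.08. On cortex replicate 4 the deviations from the cortex mean were 2.19 for Trpv5 and 0.49 for Trpv6, with -0.75 for Slc8a1, -0.51 for Atp2b4 and -0.34 for Calb1. S100g, at 0.40, and the pump gene Atp2b1, at 0.13, were above the mean on that array. On the replicate 3 arrays Trpv5, the calbindins, the exchanger and Atp2b4 were all above their region mean, by 0.14 to 1.21 in medulla and by 0.45 to 1.01 in cortex. Trpv6 was slightly below it, at -0.02 in medulla and -0.14 in cortex, and Atp2b1 stood at 0.20 and -0.04. On the replicate 1 arrays all 7 members were below it in both regions. Trpv5 and Calb1 were the lowest there, at -2.04 and -1.52 in medulla and -1.97 and -0.98 in cortex.

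Markers of the tubule segment moved too. The 14 distal tubule markers, all measured, had a mean deviation of 0.10, 0.39, 0.01 and -0.50 on medulla replicates 1 to 4, against -0.12, 0.22, 0.34 and -0.43 on cortex replicates 1 to 4, and their summed intensity ran from 3585 to 7879 in medulla and from 4340 to 8585 in cortex. Between the regions 13 of the 14 were lower in medulla, 0 of them called and 0 at an unadjusted p under 0.05 by limma. A 2-fold range in both regions was reached by 5. Of all genes, 54.2% were lower in medulla, 5.35% had an unadjusted p under 0.05 and 2.21% had such a range. Slc12a3, the thiazide-sensitive salt cotransporter that defines the distal convoluted tubule, measured 9.28, 10.07, 9.55 and 8.72 in medulla, against 9.37, 10.12, 10.52 and 9.61 in cortex. The defining marker Pvalb, of the early distal convoluted tubule, lay between 4.34 and 4.41 in medulla and between 4.34 and 4.42 in cortex, under the lower quartile of every array. The fall on the replicate 4 arrays was not particular to this segment. On medulla and cortex replicate 4 the mean deviation was -0.32 and -0.73 for thick limb markers and -0.75 and -0.50 for principal cell markers. It was -0.55 and -0.38 for intercalated cell markers, but -0.12 and 0.21 for proximal tubule markers. In whole tissue, fewer cells of a type and less RNA per cell cannot be told apart. With the mean of the distal list subtracted on each array, an alternative chosen after seeing the data, the range was 4.34 in medulla and 4.48 in cortex for Trpv5, 2.82 and 1.53 for Calb1, and 1.40 and 1.16 for Slc8a1. The same step took Trpv6 to 1.92 and 1.41, S100g to 0.82 and 1.47, and Atp2b1 to 1.21 and 0.95, and Atp2b4 to 0.71 and 0.29.

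The replicate 4 arrays also had the highest value of 5 of the 6 injury markers in both regions, Vcam1 being the exception, with 6.72 on medulla replicate 4 against 6.78 on medulla replicate 3 and 5.87 on cortex replicate 4 against 6.31 on cortex replicate 1. The mean deviation of the 6 injury markers was -1.0, -1.29, 0.62 and 1.67 on medulla replicates 1 to 4, against -0.70, -0.80, -0.24 and 1.74 on cortex replicates 1 to 4, and their summed intensity ran from 1436 to 11994 in medulla and from 1328 to 10153 in cortex. Havcr1, whose product is kidney injury molecule 1, ranged over 6.79 log2 in medulla and 6.68 in cortex. The part of these markers in the values of the members was not tested.

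**Figure D3:**
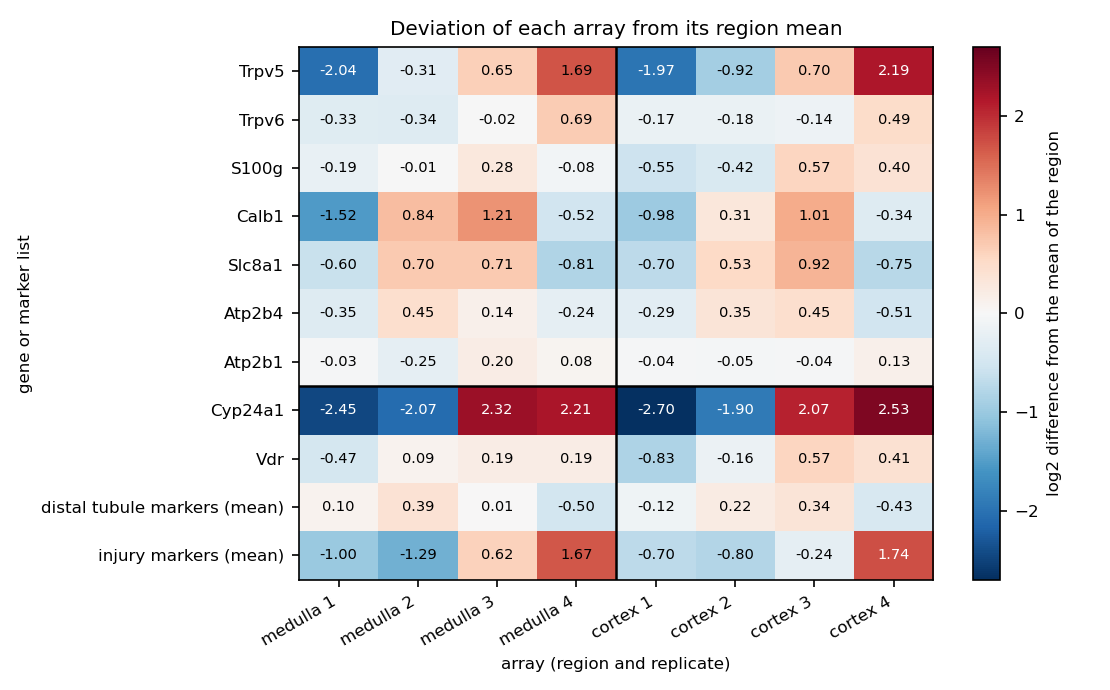
Deviation of each array from the mean of its region (log2, colour and number) for the 7 members, for Cyp24a1 and Vdr, and for the means of the distal tubule and injury marker lists, with medulla arrays left and cortex arrays right. On the replicate 4 arrays Trpv5 stands at 1.69 and 2.19 while Slc8a1 stands at -0.81 and -0.75 and the distal markers at -0.50 and -0.43.

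The comparison of the regions, medulla against cortex, showed no called difference for any member. Calb1 averaged 9.26 ± 1.26 in medulla and 9.97 ± 0.86 in cortex (SD, n = 4 each), a difference of -0.71 log2 with a standard error of 0.68. Slc8a1 averaged 7.77 ± 0.82 in medulla and 8.34 ± 0.85 in cortex, a difference of -0.57 ± 0.53 (SE). Trpv5 averaged 6.90 ± 1.59 in medulla and 7.45 ± 1.83 in cortex, a difference of -0.54 ± 1.08. For Atp2b4 the difference was -0.34 ± 0.27 and for S100g -0.29 ± 0.27, while Trpv6 stood at 0.04 ± 0.26 and Atp2b1 at 0.05 ± 0.10. Thus 5 of 7 members were lower in medulla, with a median difference of -0.34, where 54.2% of all genes were lower and the median was -0.01.

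By limma with Benjamini-Hochberg adjustment over all 18166 genes, 0 of 7 members passed the joint threshold of an adjusted p of 0.05 and a 2-fold difference, and 0% of all genes did. Adjusted p for the members lay between 0.881 (Atp2b4) and 0.986 (Trpv6), and the smallest over all genes was 0.875. At an unadjusted p under 0.05, 0 of 7 members passed and 5.35% of all genes did. The exact permutation test of 4 against 4 arrays, two-sided, gave p from 0.286 (Atp2b4) to 0.80 (Trpv6), unadjusted, where the smallest value it allows is 0.0286. In 0 of 7 members did the regions fail to overlap, against 2.83% of all genes. With single arrays left out the difference ran from -1.11 to -0.20 for Calb1, from -0.82 to -0.27 for Slc8a1, from -0.51 to -0.19 for Atp2b4 and from -0.47 to -0.10 for S100g. The value nearest 0 was without medulla replicate 1 for Calb1, and without cortex replicate 3 for the other members just named. For Trpv5 it ran from -1.20 to 0.19, and its sign turned without medulla replicate 1 or cortex replicate 4.

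**Figure D4:**
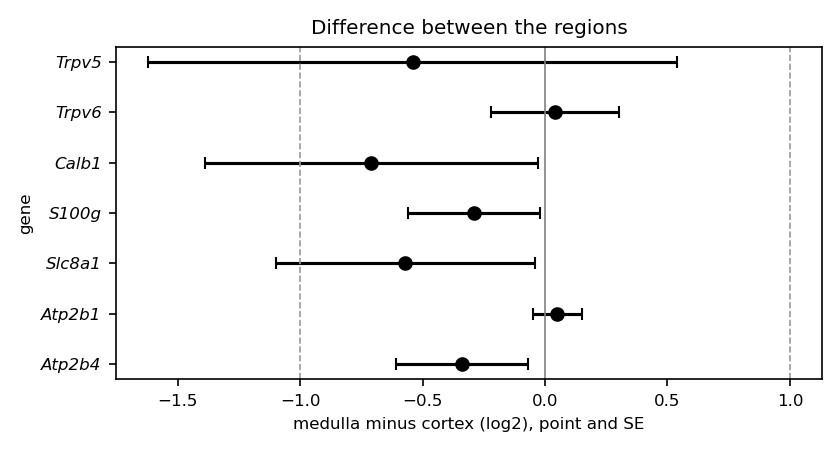
Medulla minus cortex difference of each calcium transport gene (x axis, log2, points) with its standard error from limma (bars), n = 4 arrays per region, and dashed lines at 2-fold. Every point lies inside the 2-fold lines, and Trpv5 has the widest bar, at -0.54 with a standard error of 1.08.

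The region labels were checked against marker genes. All 5 urea and osmolyte genes were higher in medulla, with a median difference of 1.04 log2, 5 at an unadjusted p under 0.05 and 0 called by limma after adjustment. Of all genes, 54.2% were lower in medulla and 5.35% had an unadjusted p under 0.05. Slc14a2, a collecting duct urea transporter, differed by 1.53 with a standard error of 0.32, without overlap of the regions. The proximal tubule phosphate transporter Slc34a1, a cortical marker, still measured 9.71 to 11.01 on the medulla arrays, against 10.42 to 11.10 on the cortex arrays. The regions overlapped in this marker.

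Hormone and receptor genes of calcium balance were measured in 7 of 9 cases. All 7 had a lower mean in medulla, with a median difference of -0.33, and limma called 0 by adjusted p or at an unadjusted p under 0.05. Of all genes, 54.2% were lower in medulla and 5.35% had an unadjusted p under 0.05. Between arrays, 2 of the 7 passed 2-fold in both regions, Cyp24a1 and Casr, where 2.21% of all genes passed. Cyp24a1 measured 5.31, 5.69, 10.08 and 9.97 in medulla, against 5.42, 6.21, 10.18 and 10.65 in cortex, low on the replicate 1 and 2 arrays and high on the replicate 3 and 4 arrays of both regions. The cortex values of S100g had the same split, and those of Trpv5 were also higher on the replicate 3 and 4 arrays than on the replicate 1 and 2 arrays in both regions. Vdr, the vitamin D receptor, measured 7.37, 7.93, 8.03 and 8.04 in medulla, against 7.45, 8.12, 8.86 and 8.69 in cortex. Its range was 0.67 in medulla and 1.40 in cortex. Casr, the calcium-sensing receptor of the thick ascending limb, was 6.48 on both replicate 4 arrays, while the other medulla arrays held 8.15 to 8.61 and the other cortex arrays 8.53 to 8.72. Without those arrays its ranges were 0.46 and 0.19, against 2.13 and 2.24 with them. Kl, the klotho gene, whose product acts in FGF23 signalling and on TRPV5, ranged over 1.09 in medulla and 0.56 in cortex.

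Among proteins that regulate or carry the channels, 12 of 13 listed genes were measured. Of these 8 were lower in medulla and 4 higher, 0 were called by limma and 0 had an unadjusted p under 0.05. A 2-fold range in both regions was passed by 4. Of all genes, 54.2% were lower in medulla, 5.35% had an unadjusted p under 0.05 and 2.21% passed that range. S100a10 and Anxa2 encode the complex that brings TRPV5 and TRPV6 to the plasma membrane. S100a10 measured 7.50, 7.51, 8.08 and 8.99 in medulla, against 7.57, 7.43, 7.21 and 8.95 in cortex. Anxa2 measured 8.25, 7.85, 8.14 and 9.22 in medulla, against 7.79, 7.60, 7.29 and 8.81 in cortex. Both were thus highest on the replicate 4 arrays, as were the channels and most of the injury markers. In cortex both were lowest on replicate 3, where Trpv5, at 8.15, was above its values on replicates 1 and 2. Without the replicate 4 arrays the ranges were 0.58 in medulla and 0.37 in cortex for S100a10, and 0.40 and 0.50 for Anxa2. Klk1, tissue kallikrein, which is made in the connecting tubule and raises TRPV5 at the cell surface, measured 7.83, 9.88, 7.86 and 6.98 in medulla, against 8.41, 9.84, 9.95 and 8.08 in cortex. Its medulla range of 2.89 was 0.87 without medulla replicate 2, and Klk1 has close relatives that its probe set may also detect. Umod, which encodes uromodulin, a thick limb protein that keeps TRPV5 at the surface, measured 11.73, 11.80, 11.36 and 10.54 in medulla, against 11.89, 11.76, 11.68 and 10.73 in cortex, lowest on the replicate 4 arrays. Its ranges without those arrays were 0.44 and 0.21.

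Paralogs of the members had ranges near those of all genes. Of 9 listed genes, all measured, 0 had a 2-fold range in either region. Of all genes, 3.80% passed in medulla and 3.60% in cortex. The median ranges of the paralogs were 0.17 in medulla and 0.20 in cortex, against 0.25 and 0.21 over all genes. The widest were the pump gene Atp2b3, with 0.48 in medulla and 0.66 in cortex, more than its relative Atp2b1 in both, the mitochondrial exchanger Slc8b1, with 0.32 and 0.54, and the channel Trpv4, with 0.53 and 0.30. Many are dim, and Calb2, which encodes calretinin, lay under the lower quartile on every array. The genes of intracellular calcium stores gave 0 of 9 measured with a 2-fold range in both regions, where 2.21% of all genes passed. Their widest were the inositol trisphosphate receptor genes Itpr1, with 1.00 in medulla and 0.81 in cortex, and Itpr2, with 0.85 and 0.55. Of the 6 claudin genes of the paracellular route 2 passed, Cldn10, with 1.09 and 1.81, and Cldn19, with 1.74 and 1.03. Between the regions limma called none of these paralogs, store genes and claudins by adjusted p. Its unadjusted p was under 0.05 for 0 of 9 paralogs, 1 of 9 store genes and 1 of 6 claudins, against 5.35% of all genes.

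The genes most like each wide-ranging member were found by Pearson r of the region-centred log2 values over the 8 arrays, among the 399 genes with a 2-fold range in both regions that are not members. It is a description with no test, since it is not known how many animals the arrays come from. For Trpv5 the highest were the sulfate transporter gene Slc13a1 (r = 0.984), the mitotic kinesin gene Kif11 (0.976), Sectm1b (0.973), Plac8 (0.971) and the lactate transporter gene Slc5a12 (0.96). Slc13a1 measured 8.57, 9.15, 10.07 and 10.90 in medulla, against 8.78, 9.28, 10.13 and 11.30 in cortex, within each region in the same order of arrays as Trpv5. The lowest for Trpv5 were Fxyd4, a sodium pump regulator of the collecting duct (-0.991), the matrix proteoglycan gene Prelp (-0.984) and Galnt18 (-0.982). Of the 14 distal tubule markers only 5 were among the 399 genes compared, so their absence from the 5 genes most like Trpv5 says little. The distal marker Slc12a3 stood at r = -0.07 with Trpv5.

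For Slc8a1 the highest were Tmem52b (r = 0.979), the defensin gene Defb11 (0.972), Wnk1, a kinase that controls the salt cotransporter of the distal tubule (0.929), Stk32a (0.927) and Slc12a3 (0.915). Between members, Slc8a1 reached 0.95 with Atp2b4 by this measure, and Calb1 reached 0.81 with Atp2b4. Trpv5 reached 0.8 with Trpv6 but 0.0 with Slc8a1. Calb1 and Slc8a1 reached 0.89, above the values of Calb1 with the 399 genes compared. Among those genes the highest for Calb1 were Klk1b3, a kallikrein relative (0.853), Tmem52b (0.821), Defb11 (0.813), the intercalated cell exchanger gene Slc26a4 (0.784) and Slc12a3 (0.744). Tmem52b, Defb11 and Slc12a3 stood in both lists. Tmem52b measured 8.64, 9.73, 9.76 and 8.35 in medulla, against 8.56 to 10.39 in cortex, where it was also highest on replicates 2 and 3, which is the arrangement of Slc8a1. The lowest were Ypel4 (-0.875), the leukocyte actin-bundling gene Lcp1 (-0.867) and Serinc2 (-0.845) for Slc8a1, and Ypel4 (-0.879), Slc14a2 (-0.786) and the small heat shock protein gene Cryab (-0.705) for Calb1.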

How the data were processed

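Total RNA of rat kidney was hybridised to 8 arrays, 4 of medulla and 4 of cortex, grouped by the region label and numbered per region in the order of the labels. The authors deposited 1 table of linear intensity for 29870 probe sets, which the submitters' processing notes credit to RMA and Affymetrix Expression Console, versions not given in the sources used here. Values ran from 17.3 to 6229, with array medians of 34.1 to 34.7, and were put on the log2 scale with no pseudocount or filter. The number of arrays limits precision, and detection calls were not used here. Every value column belonged to a labelled sample, and any pair of arrays had at most 1 value in common.

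The platform annotation gave 18511 probe sets 1 symbol, 575 several and 10784 none here. By Entrez identifier, 18394 matched the RefSeq table of GRCr8 and 0 symbols changed. For 291 genes with several probe sets the one with the highest mean was kept. limma 3.58.1 under R 4.3.3 compared the regions (lmFit, eBayes, Benjamini-Hochberg over all genes) and, per member, an exact permutation test (scipy 1.17.1). Figures used matplotlib 3.10.9. Promoter windows are RefSeq's, assembly GRCr8.

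The members and the 16 lists were chosen with earlier results of these data known. The arrays measured 96 of 109 list entries. Genes named are the members, list genes with a 2-fold range in both regions (or the 3 widest of a list), 10 fixed genes, and for each member with a 2-fold range in both regions the 5 most and 3 least like it, of which those that describe the members are given. Alternatives were quantile normalization, median centring, the mean of probe sets, dropping genes whose mean signal was within the lowest 30%, single arrays left out, both replicate 4 arrays left out, a trended robust prior, array weights, the adjusted p alone, and 1.5-fold and 3-fold ranges.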

Additional observations from a re-analysis of the deposited data

Results flagged for a closer look

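An array far from the other 3 of its region, by the gap to its nearest neighbour over the range, was found in 5 of 40 groups of 4 arrays examined, where chance gives about 1 in 20. Trpv6 on cortex replicate 4, at 5.63, lay far above the other cortex arrays, with a gap of 0.95 of the range. Atp2b1 on cortex replicate 4, at 7.88, lay above the others with a gap of 0.926, over a range of only 0.19 log2. Casr on cortex replicate 4, at 6.48, lay below the others with a gap of 0.917. The mean deviation of the thick limb markers on medulla replicate 4, at -0.32, lay below the others with a gap of 0.869. Vdr on medulla replicate 1, at 7.37, lay below the others with a gap of 0.844.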

How the results depend on the processing

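Medulla against cortex, 0 members and 0 genes were called under each of the alternatives run. The members with a 2-fold range in both regions numbered 3 under both normalizations, the mean of probe sets, the filter on dim genes and any left-out array, and were Trpv5, Calb1 and Slc8a1 each time. They numbered 5 at a 1.5-fold range, 2 at a 3-fold range, and 4 with the distal tubule mean subtracted, which added Trpv6. That mean itself moves between arrays, and subtracting it widened even Atp2b1, from 0.45 in medulla and 0.19 in cortex to 1.21 and 0.95. The sign of small differences was not stable. With arrays left out, the difference ran from -0.18 to 0.21 for Trpv6, from -0.02 to 0.13 for Atp2b1 and from -1.20 to 0.19 for Trpv5, and Trpv6 stood at -0.01 with array weights. Array weights also moved the difference to -1.24 for Calb1, -0.91 for Slc8a1, -0.86 for Trpv5 and -0.54 for Atp2b4, not called. Trpv6 stood at -0.02 with both replicate 4 arrays left out. The cause of the turned signs was not tested beyond the arrays named. No paired analysis was possible because the labels number the arrays in 1 run across the regions and tie no medulla array to a cortex array. Values near the array medians limit the folds of Trpv6 and S100g.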
